A study of Mus musculus with 4 samples.

Results

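Innate lymphoid cells resembling group 2 cells (ILC2-like) and gamma-delta T cells were picked out by gene counts from droplet single-cell RNA libraries of lung leukocytes, and the subsets are reported apart. A UMI marks 1 captured RNA molecule, and a barcode stands for 1 droplet, nominally 1 cell. ILC2-like barcodes had no UMI of Cd3e, Cd3d or Cd3g, at least 1 of Il7r and at least 2 of Gata3, Rora and Il1rl1 together. Gamma-delta barcodes had at least 1 CD3 UMI, at least 2 of Trdc and Tcrg-C1 together, none of Foxp3 and at most 2 of Il2ra, Ctla4 and Ikzf2. All had at least 200 genes, at most 10% mitochondrial UMIs, no Cd4, Cd8a, Cd8b1, Cd79a, Ncr1 or Klre1, and at most 5 Lyz2 UMIs. These rules gave 142 members of 10382 deposited barcodes, 117 ILC2-like and 25 gamma-delta, among 9256 that passed the gene and mitochondrial limits.

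The mice were Balb/c, and 4T1 mammary carcinoma cells had been given into a vein 14 days earlier. The 2 libraries of the PD-L1 KO group came from lungs of mice given 4T1 cells with PD-L1 knocked out, and the 2 libraries of the WT group from mice given unedited 4T1 cells. Lungs were perfused and digested with collagenase, and CD45-bearing cells were selected with magnetic beads. Every sample thus holds CD45-selected lung cells of mice given tumour cells, and none comes from mice that were not given them. The labels name no altered gene in the mice of either group. The sources used here do not say whether libraries came from separate mice or whether the edited line was 1 clone, so p-values measure only the spread between libraries, which may be technical. The deposited files carried names of the opposite condition for both groups; the sample labels were used, and every direction between PD-L1 KO and WT rests on them.

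Group 2 innate lymphoid cells lack antigen receptors and sit in the lung, where the alarmins IL-33, IL-25 and TSLP act on them through receptors encoded by Il1rl1, Il17rb and Crlf2; they are known for making IL-5, IL-13 and amphiregulin. Gamma-delta T cells carry a T cell receptor of gamma and delta chains, and in mice many commit in the thymus either to IL-17 or to interferon-gamma and killing. PD-1, encoded by Pdcd1, is the receptor of PD-L1.

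Libraries held 19635983 and 17618220 UMIs in PD-L1 KO and 18573034 and 19338261 in WT. ILC2-like barcodes numbered 26 and 24 in PD-L1 KO and 30 and 37 in WT, with medians of 4120 and 4538 UMIs per barcode in PD-L1 KO and 4275.5 and 3991 in WT. Gamma-delta barcodes numbered 9 and 7 in PD-L1 KO and 5 and 4 in WT. Summed over a library, the ILC2-like counts ranged between 118909 and 207847 UMIs and the gamma-delta counts between 15981 and 34630, so the gamma-delta values rest on far fewer molecules. No member barcode occurred in more than 1 library, and at most 3 barcodes of any kind were shared by a pair of libraries. Cd274, the gene of PD-L1, reached 47.5 and 38.9 CPM (counts scaled to the total of the summed barcodes) over all passing barcodes of the PD-L1 KO libraries and 31.0 and 24.1 CPM in WT. Those barcodes were CD45-selected lung cells of any lineage, and the labels name no altered gene in the mice. The values therefore do not check the knockout in the injected cells.

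The genes of the rule describe how the members were chosen and support nothing further. Of the 117 ILC2-like barcodes, 99 held a UMI of Gata3, the master transcription factor of these cells, 105 of Rora, a nuclear receptor they need, 89 of Il1rl1, the IL-33 receptor, and 70 of all 3. The median of their 3-gene sum was 7 UMIs. At the threshold, 12 ILC2-like barcodes had a sum of exactly 2, and 7 barcodes met every other condition with a sum of 1. Among the 25 gamma-delta barcodes, 24 held Trdc and 14 held Tcrg-C1, the constant regions of the delta chain and of 1 gamma chain. Their median sum was also 7 UMIs, with 5 barcodes at exactly 2 and 10 just outside at 1. Trdc was also found in 163 of 474 natural killer (NK) barcodes, or 34.4%, which held Ncr1 or Klre1 and no CD3 UMI. By itself Trdc therefore does not set the gamma-delta members apart from NK cells.

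Part of the ILC2-like set carried genes of a further lineage. Of the 117 barcodes, 15 had at least 30 UMIs of the antigen-presentation genes H2-Aa, H2-Ab1, H2-Eb1 and Cd74, at least 20 of endothelial or at least 5 of dendritic cell markers, thresholds set after seeing the data. Such barcodes numbered 0 and 6 in PD-L1 KO and 4 and 5 in WT, and they held 30.8% of all ILC2-like UMIs. The deepest, in WT library 2, had 51543 UMIs. In the summed counts the dendritic cell list reached 294 and 14290 CPM in PD-L1 KO and 4699 and 4980 CPM in WT, against 294 and 71.0 CPM in PD-L1 KO and 29.1 and 247 CPM in WT without those barcodes. Results on ILC2-like sums that depend on them are given with and without. The neutrophil genes S100a8 and S100a9 were absent from 89 ILC2-like barcodes and reached 50 UMIs or more in 18. Doublet scoring marked 1 ILC2-like and 0 gamma-delta barcodes. Among gamma-delta barcodes, 0 met any of the other-lineage thresholds.

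ILC2-like barcodes made up a slightly lower and gamma-delta barcodes a higher share of passing barcodes in the PD-L1 KO than in the WT libraries. The ILC2-like share was 1.15% and 1.16% in PD-L1 KO and 1.20% and 1.53% in WT, averaging 1.15% ± 0.0131 in PD-L1 KO and 1.36% ± 0.238 in WT (SD, n = 2 each). The gamma-delta share was 0.396% and 0.339% in PD-L1 KO and 0.199% and 0.166% in WT, averaging 0.368% ± 0.0403 and 0.182% ± 0.0238 in PD-L1 KO and WT (SD, n = 2 each). Groups did not overlap in either subset under these rules. The ILC2-like groups overlapped without the barcodes of other lineages, at 1.15% and 0.873% in PD-L1 KO and 1.04% and 1.33% in WT, as they did at no more than 5% mitochondrial UMIs and with thresholds raised by 1 UMI. An exact two-sided permutation test of 2 against 2 libraries cannot go below p = 0.333, and it gave 0.333 for both subsets. The exact 95% binomial (Clopper-Pearson) intervals, which cover counting error only, were for gamma-delta 0.181% to 0.751% and 0.137% to 0.698% in PD-L1 KO and 0.0647% to 0.464% and 0.0451% to 0.424% in WT, so the 4 intervals overlap. In log2 terms the ratio of mean shares was -0.24 for ILC2-like and 1.01 for gamma-delta barcodes; without WT library 2 the ILC2-like ratio was -0.05, and without WT library 1 it was -0.41.

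Set against each other, gamma-delta barcodes per ILC2-like barcode came to 0.346 and 0.292 in PD-L1 KO and 0.167 and 0.108 in WT. Both PD-L1 KO ratios lay above both WT ratios (exact permutation p = 0.333, the smallest that 2 against 2 can give). Each barcode was also thinned to 1500 UMIs and the rules applied again. The gamma-delta share was then 0.429% and 0.385% in PD-L1 KO and 0.358% and 0.191% in WT, with a log2 ratio of means of 0.57. Thinning can also remove UMIs that barred a barcode, so the members were not the same set. WT library 1 had 8 gamma-delta barcodes after thinning and 5 before. At that depth the ILC2-like share was 1.05% and 0.659% in PD-L1 KO and 0.985% and 1.43% in WT, and the groups overlapped.

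**Figure D1:**
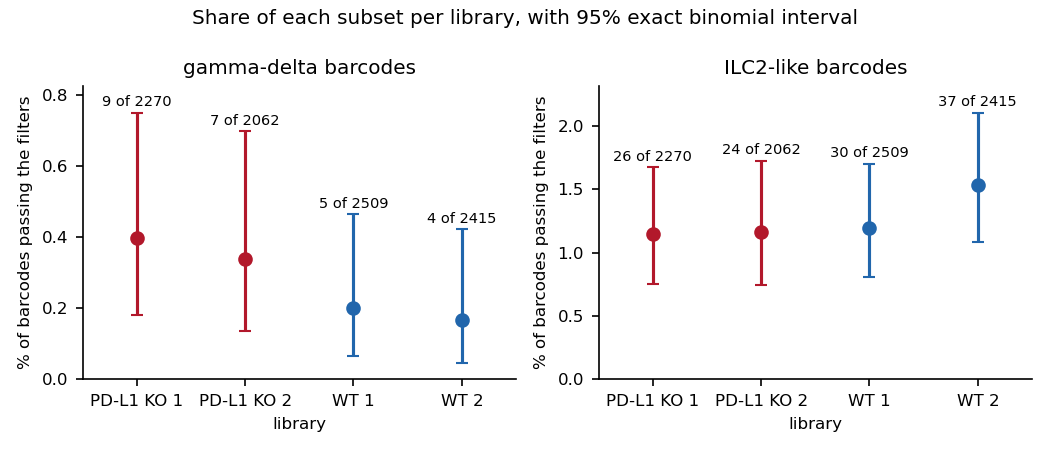
Share of passing barcodes (percent, y axis) that met the ILC2-like and the gamma-delta rules in each library, PD-L1 KO left of WT, with exact 95% binomial intervals. Gamma-delta shares were 0.396% and 0.339% in PD-L1 KO and 0.199% and 0.166% in WT, with overlapping intervals.

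Effector and receptor genes that the rule did not use were detected in ILC2-like barcodes far above the level of free RNA. B cell barcodes (Cd79a-bearing, n = 780, median 3070 UMIs) served as the class that should lack them, against a median of 4139 UMIs in ILC2-like barcodes. Areg, encoding amphiregulin, an epidermal growth factor family ligand of tissue repair, was found in 17.1% of ILC2-like and 0.385% of B barcodes. Arg1, the arginine-degrading enzyme arginase, was found in 29.1% of ILC2-like and 1.03% of B barcodes. Il9r, the IL-9 receptor, reached 30.8% of ILC2-like and 3.85% of B barcodes, and Stab2, encoding the scavenger receptor stabilin-2, 65.8% and 1.28%. Calca, encoding the neuropeptide CGRP and calcitonin, was in 16.2% of ILC2-like and 0.385% of B barcodes.

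The cytokines themselves were sparse. Areg had 42 and 9 UMIs in the PD-L1 KO and 5 and 19 in the WT ILC2-like sums, from 8 and 4 barcodes in PD-L1 KO and 1 and 7 in WT. Il5, the eosinophil growth factor, had 9 and 2 UMIs in PD-L1 KO and 2 and 2 in WT. Il13, the cytokine of mucus and airway reactivity, had 12 and 0 UMIs in PD-L1 KO and 0 and 0 in WT, all from PD-L1 KO library 1. Csf2, encoding GM-CSF, had 8 and 5 UMIs in PD-L1 KO and 7 and 10 in WT. Il4 gave a single UMI over the 4 ILC2-like sums. Apart from Csf2 and Il4, PD-L1 KO library 1 had the most UMIs, and library 2 of that group stayed within or near the WT values. These counts are not scaled to the ILC2-like sums, which were 118909 and 171025 UMIs in PD-L1 KO and 131955 and 207847 in WT. Scaled to them, PD-L1 KO library 1 was the highest for Csf2 as well.

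Receptor and surface genes also varied between libraries. Icos, a co-stimulatory receptor, had 420 and 123 CPM in PD-L1 KO and 212 and 183 CPM in WT. Crlf2, the TSLP receptor chain, had 67.3 and 129 CPM in PD-L1 KO and 121 and 52.9 CPM in WT, and T cells had 41.1 to 78.8 CPM. Klrg1, an inhibitory lectin receptor of mature lung ILC2, was low at 42.0 and 11.7 CPM in PD-L1 KO and 22.7 and 38.5 CPM in WT. PD-L1 KO and WT overlapped for all 3 genes.

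Compared with conventional T cells, ILC2-like cells had higher levels of most measured ILC2 genes and lower levels of T cell receptor and cytotoxic genes. The comparator, barcodes with CD3 and Cd4 or Cd8 UMIs, at most 1 UMI of Trdc and Tcrg-C1, none of Foxp3 and otherwise the same exclusions, held 703 barcodes. Counts were summed per library and class and fitted over 7089 genes with edgeR's quasi-likelihood test, with the library as a block and the 20 rule genes left out. In ILC2-like cells 374 genes were higher (5.28% of those tested) and 439 lower (6.19%) at an adjusted p of 0.05. The classes were cut from the same barcodes by counts of related genes, so these tests describe the classes and do not establish that the cut is correct. Genes named below by rank are those with the largest log2 difference past the threshold and of the same direction in all 4 libraries, as 786 were.

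Of the higher genes by rank, Calca and Pcsk1 had the largest differences. Calca had 7 and 23 UMIs in the PD-L1 KO and 17 and 40 in the WT ILC2-like sums, against at most 1 in any T cell sum (log2 difference 7.21 ± 0.52 SE, edgeR adjusted p = 1.18e-05). Pcsk1, a protease that cuts prohormones, had 22 and 5 UMIs in PD-L1 KO and 23 and 18 in WT, against 3 in all T cell sums (6.72 ± 0.65). Bmp2, a growth factor of the TGF-beta family, was higher by 6.49 ± 0.80 and Ccl1, a chemokine, by 6.10 ± 0.48. Ccl1 was uneven, with 49 and 2 UMIs in PD-L1 KO and 9 and 40 in WT. Areg followed with a log2 difference of 6.03 ± 0.44 (edgeR adjusted p = 1.18e-05).

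Stab2 averaged 374 ± 172 CPM in ILC2-like and 3.50 ± 4.28 CPM in T cell sums (SD, n = 4), a log2 difference of 6.32 ± 0.48. It is best known from liver sinusoidal endothelium. Without the barcodes of other lineages its mean was 481 ± 157 CPM (SD, n = 4), and 75 of 102 barcodes held it. Olfr1258 and Olfr1259, annotated as olfactory receptor genes with close paralogs, were higher by 6.12 ± 0.95 and 6.04 ± 0.55, and the files do not say how reads were divided among such copies; Olfr1258 did not pass the low-count filter without WT library 2. Further higher genes were Rnf128, a ubiquitin ligase, by 5.75 ± 0.80, Cntn1, a cell adhesion protein, by 5.74 ± 0.66, and Slc7a8, an amino acid transporter, by 5.46 ± 0.50. Il17rb, the IL-25 receptor, was higher by 5.24 ± 0.75 (edgeR adjusted p = 0.000969).

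Of the 34 genes on the ILC2 identity and effector list, 26 passed the low-count filter in this comparison, 18 were higher and 4 lower. Their median log2 difference was 3.24, beside 0.01 over all genes tested. The filter admits genes through the class in which they are high, so the median describes these genes only. Ligands and enzymes among the 18 were Csf2 (4.67 ± 0.73), Lif (5.02 ± 0.66), a cytokine of the IL-6 family, and Arg1 (4.44 ± 0.37). Receptors among them were Il9r (4.12 ± 0.58), Cysltr1 (4.28 ± 0.34) and Ltb4r1 (3.89 ± 0.31) for leukotrienes, Ptgir (4.73 ± 0.46) for prostacyclin, and Ccr8 (3.26 ± 0.73), the receptor of Ccl1. Pparg, a lipid-sensing nuclear receptor, was higher by 4.25 ± 0.71, and Tnfrsf18, encoding GITR, by 1.80 ± 0.18. The 4 lower members, Tcf7 (-3.66 ± 0.35), Thy1 (-1.37 ± 0.18), Bcl11b (-1.34 ± 0.16) and Ets1 (-0.76 ± 0.16), are regulators and a surface protein that T cells also use.

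T cell receptor genes ran the other way with 1 exception. Of 14 such genes 13 were tested, 10 were lower and 1 higher. Trac, the constant region of the alpha chain, had 0 and 1 UMIs in PD-L1 KO and 0 and 0 in WT ILC2-like sums, against 507 and 246 in PD-L1 KO and 396 and 479 in WT T cell sums. Cd5 and Cd6, surface regulators of T cell signalling, had 0 UMIs in all ILC2-like sums, at least 22.4-fold and 20.1-fold lower than in T cells (floor of 3 UMIs over the 4 sums). Trbc1 and Trbc2, the beta-chain constant regions, were lower by -1.93 ± 0.21 and -2.33 ± 0.17 but remained present: 48.7% and 65.0% of ILC2-like barcodes held them, against 64.2% and 96.0% of T cell barcodes and 4.74% and 3.59% of B barcodes. Trac was in 0.855% of ILC2-like and 0.513% of B barcodes. NK barcodes, which also lack CD3 UMIs, held Trbc1 in 70.3%, Trbc2 in 36.1% and Trac in 2.32%. Beta-chain constant transcripts with little Trac were thus not particular to the ILC2-like barcodes.

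Tcrg-C4, a gamma-chain constant region, was the exception. It averaged 148 CPM in ILC2-like and 4.20 CPM in T cell sums (4.84 ± 0.46, edgeR adjusted p = 5.4e-05), and gamma-delta sums averaged 131 CPM. It was in 37.6% of ILC2-like, 48.0% of gamma-delta and 0.769% of B barcodes. Trdc, the delta constant region, had 0 and 2 UMIs in PD-L1 KO and 1 and 3 in WT ILC2-like sums. Receptor-constant transcripts of the beta and gamma loci were thus detected in ILC2-like barcodes, whereas those of the alpha and delta loci amounted to 1 and 6 UMIs over the 4 sums.

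Genes of the IL-17-type gamma-delta list were also higher in ILC2-like than in T cell sums, 9 of 12 tested from 26 with 0 lower. They were Maf, Ccr6, Ccr2, Tmem176a, Tmem176b, Serpinb1a, Cxcr6, Lgals3 and Trdv4, with Tmem176b at 3.38 ± 0.24 and Serpinb1a at 3.85 ± 0.28. Trdv4, a delta variable segment, had 4 and 4 UMIs in PD-L1 KO and 4 and 10 in WT ILC2-like sums, against 2 and 0 in PD-L1 KO and 0 and 1 in WT T cell sums (5.05 ± 0.86).

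Of 22 cytotoxic genes 16 were tested, 13 were lower and 0 higher, with a median log2 difference of -3.09, or -2.53 with genes at 0 put at their bound. Nkg7, a granule protein, was lower by -5.18 ± 0.41, Prf1, encoding perforin, by -3.49 ± 0.54, and Ccl5, a chemokine of effector T cells, by -3.02 ± 0.23. Type I interferon response genes gave 0 higher and 7 lower of 47 tested from 57, among them Ifi27l2a (-2.64 ± 0.32). Without the barcodes of other lineages 16 of 45 were lower. Of the 18 genes on the residency and homing list, all tested, 6 were higher and 6 lower. Among the lower were S1pr1 (-2.62 ± 0.38), Klf2 (-1.93 ± 0.29) and Lef1 (-5.63 ± 0.51). Among the higher were Ccr2 (2.70 ± 0.16), Rgs2 (1.60 ± 0.19) and Cxcr6 (1.25 ± 0.20).

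Further genes with 0 UMIs in every ILC2-like sum were Dapl1, at least 64.7-fold lower, Gm8369, at least 57.7-fold lower, Ly6c2, at least 23.1-fold lower, and Trat1, at least 15.0-fold lower. Trat1 encodes an adaptor of the T cell receptor. Sidt1, Sh2d1a, Dtx1, Izumo1r and Pdlim4 completed the lower genes by rank. Early response genes were higher in 7 and lower in 1 of 16 tested, with Fosb at 2.58 ± 0.16 and Atf3 at 2.02 ± 0.33; they also respond to tissue digestion, whose part in the result was not tested. Leaving out the barcodes of other lineages gave 557 higher and 717 lower genes of 6336 tested. Of the 813 genes, 713 were still past the threshold. Without PD-L1 KO library 2, 533 of 8022 tested genes were called, and without WT library 1, 394 of 7953.

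**Figure D2:**
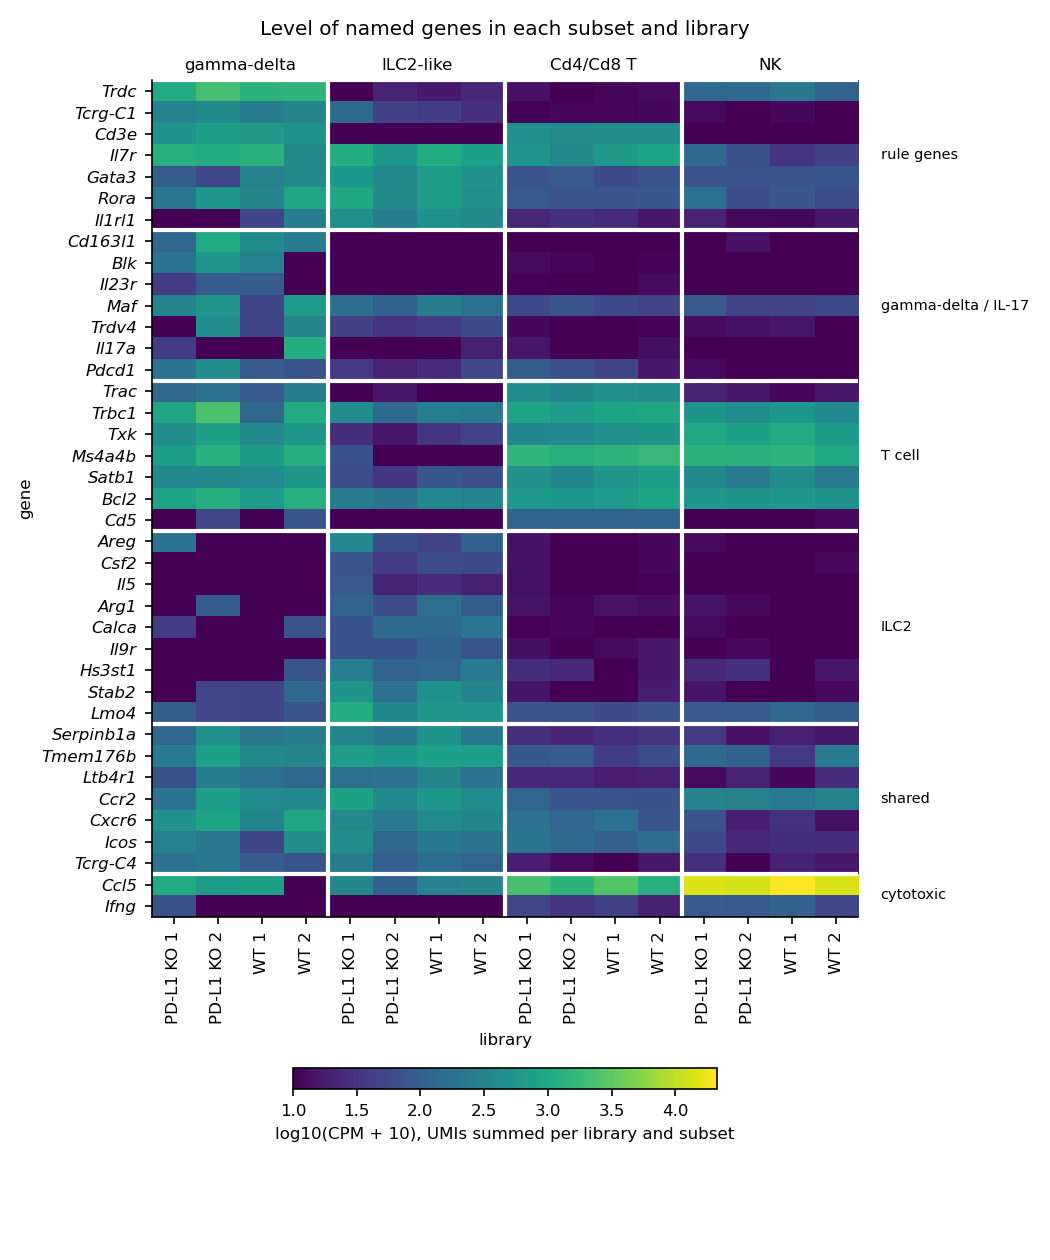
Heat map of named genes (rows) in the gamma-delta, ILC2-like, Cd4/Cd8 T and natural killer (NK; Ncr1 or Klre1 without CD3) sums of each library (columns), with colour showing log10 of CPM plus 10. ILC2-like sums held Stab2 at 374 CPM on average against 3.50 CPM in T cells, and gamma-delta sums held Cd163l1 at 461 CPM against 0 in ILC2-like and T cell sums.

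**Figure D3:**
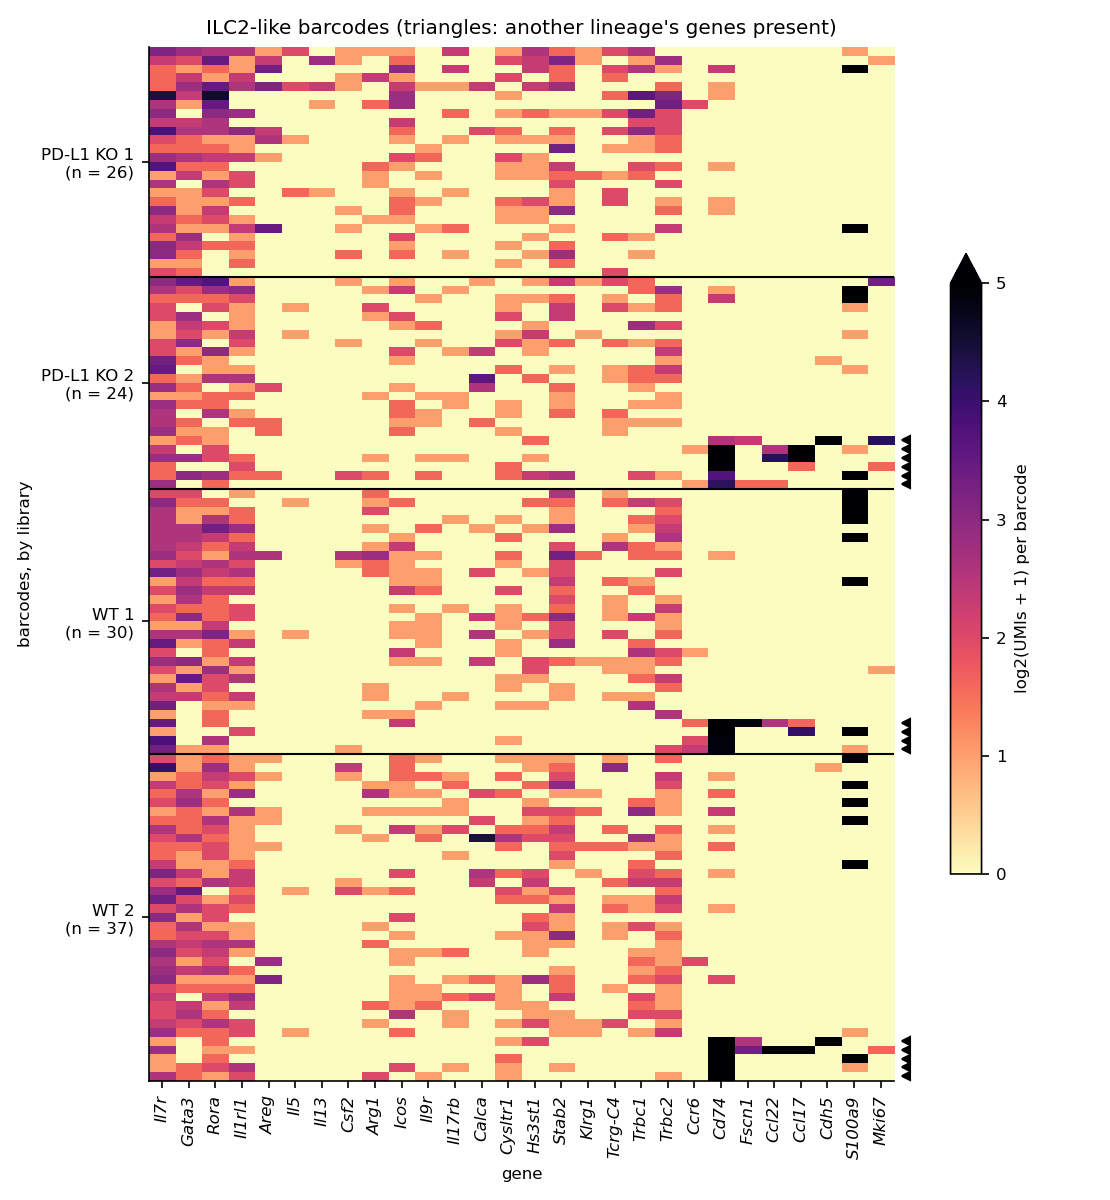
Colour gives log2 of UMIs plus 1 for rule genes, effector genes and other-lineage genes (columns) in the 117 ILC2-like barcodes (rows), grouped by library with PD-L1 KO first. The 15 barcodes marked by triangles carry other-lineage genes, and 0 of them are in PD-L1 KO library 1.

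Most gamma-delta barcodes held transcripts of an IL-17-type programme, and the cytokine genes themselves were sparse. Of the 25 barcodes, 16 held a UMI of Il17a, Il17f, Il23r, Blk, Cd163l1 or 5830411N06Rik, 7 of the cytotoxic genes Ccl5, Nkg7, Ly6c2, Klrd1, Gzma or Prf1, 2 of both and 4 of neither. By library, the IL-17-type barcodes numbered 6 of 9 and 6 of 7 in PD-L1 KO and 3 of 5 and 1 of 4 in WT. Cytotoxic-type barcodes numbered 3 and 1 in PD-L1 KO and 2 and 1 in WT. With 4 to 9 barcodes per library these shares have wide counting error and the groups were not tested.

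Cd163l1, encoding the scavenger receptor SCART1 of IL-17-producing gamma-delta cells in mice, had 4 and 26 UMIs in PD-L1 KO and 10 and 4 in WT gamma-delta sums, and 0 in every ILC2-like and T cell sum. It occurred in 12 barcodes spread over all 4 libraries, and the groups overlapped. 5830411N06Rik, the neighbouring scavenger receptor gene known as SCART2, had 6 and 0 UMIs in PD-L1 KO and 5 and 0 in WT. Blk, a B cell and gamma-delta tyrosine kinase, had 6 and 14 UMIs in PD-L1 KO and 7 and 0 in WT; B barcodes also express it, at 34.7%, so free RNA was not measured by them for this gene, and 0 of 117 ILC2-like barcodes held it.

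The sequences 250 bases upstream to 50 bases downstream of the annotated start (RefSeq, GRCm38.p6) are given for Il1rl1, a gene of the ILC2-like rule, Stab2, which differed between the subsets, and Cd163l1 and its neighbour 5830411N06Rik, detected in gamma-delta sums, with 2 short motifs that a text search looked for on both strands: GATAA, which reads TTATC on the other strand, the core bound by GATA factors, and AGGTCA, which reads TGACCT on the other strand, the core bound by many nuclear receptors. Capitals mark each match, and the sequences run 5′ to 3′ on the gene's strand. Il1rl1 lies at chr1:40429320-40429619 (plus), Stab2 at chr10:87007893-87008192 (minus), Cd163l1 at chr7:140218017-140218316 (plus) and 5830411N06Rik at chr7:140247051-140247350 (plus). The RefSeq start of Stab2 lay 83 bases and that of 5830411N06Rik 17 bases from the GENCODE start, and the other two coincided.
Il1rl1: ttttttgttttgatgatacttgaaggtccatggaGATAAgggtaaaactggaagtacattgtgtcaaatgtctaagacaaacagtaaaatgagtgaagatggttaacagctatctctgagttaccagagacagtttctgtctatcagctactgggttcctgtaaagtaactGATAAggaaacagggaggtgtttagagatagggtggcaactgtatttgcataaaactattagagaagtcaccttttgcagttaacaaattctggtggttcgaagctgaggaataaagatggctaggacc
Stab2: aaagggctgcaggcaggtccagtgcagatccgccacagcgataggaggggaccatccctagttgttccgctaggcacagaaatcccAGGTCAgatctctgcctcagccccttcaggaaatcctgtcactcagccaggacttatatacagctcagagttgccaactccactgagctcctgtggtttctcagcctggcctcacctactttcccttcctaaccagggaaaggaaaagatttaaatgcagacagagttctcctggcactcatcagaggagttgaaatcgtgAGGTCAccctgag
Cd163l1: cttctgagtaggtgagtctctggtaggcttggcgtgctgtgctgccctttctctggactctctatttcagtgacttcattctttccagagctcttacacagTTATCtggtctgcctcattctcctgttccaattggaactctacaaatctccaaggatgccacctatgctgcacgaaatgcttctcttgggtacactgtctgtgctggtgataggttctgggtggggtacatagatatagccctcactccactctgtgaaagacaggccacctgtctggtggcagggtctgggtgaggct
5830411N06Rik: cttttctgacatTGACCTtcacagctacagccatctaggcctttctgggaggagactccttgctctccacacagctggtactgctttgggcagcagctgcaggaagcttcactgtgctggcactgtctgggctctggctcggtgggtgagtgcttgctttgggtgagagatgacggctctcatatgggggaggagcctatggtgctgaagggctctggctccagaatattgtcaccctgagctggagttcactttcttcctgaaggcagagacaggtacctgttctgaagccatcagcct
GATAA occurred 2 times in the window of Il1rl1 and 1 time in that of Cd163l1, and AGGTCA 2 times in that of Stab2 and 1 time in that of 5830411N06Rik. Of all 32851 promoter windows of this length, 25.4% held GATAA and 16.3% held AGGTCA on either strand. The matches are letters in a window and do not show binding.

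Cytokine and V-segment counts were scarce. Il17a had 1 and 0 UMIs in PD-L1 KO and 0 and 18 in WT, and the 18 came from a single barcode of WT library 2. Il17f and Il22 had 0 UMIs in every gamma-delta sum. Il23r, the IL-23 receptor chain, had 1 and 2 UMIs in PD-L1 KO and 2 and 0 in WT. Trdv4, a delta variable segment, had 0 and 10 UMIs in PD-L1 KO and 1 and 5 in WT. Tcrg-V6 gave 1 UMI in all and Tcrg-V4 gave 0, and at this depth these counts do not tell absence from low detection. Ifng had 2 and 0 UMIs in PD-L1 KO and 0 and 0 in WT.

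Against conventional T cells the gamma-delta sums were higher in 46 genes (0.705%) and lower in 218 (3.34%) of 6523 tested with edgeR, 4.05% in all. The all-gene median log2 difference was -0.35, and with DESeq2 size factors it was -0.01 and the calls were 66 higher and 58 lower; the share of calls that were higher was 17.4% and 53.2% under the 2 scalings. The 24 genes chosen by rank were past the threshold in the same direction under both scalings. Without PD-L1 KO library 2, 100 of 7705 tested genes were called and 92 of the 264 were still past the threshold. Without WT library 1, 122 of 7677 were called and 110 of the 264 were still past it.

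IL-17-type genes made up a large part of the higher genes. Of the 26 genes on that list 19 passed the filter, and 16 were higher and 0 lower under either scaling. Their median log2 difference was 2.48 under the first. Genes can pass the filter through the class in which they are high, so this median covers those genes only. Over all genes 46 were higher, against 16 without PD-L1 KO library 2 and 20 without WT library 1. How many list genes kept their calls there is not given. Transcription factors among them were Maf (2.39 ± 0.40) and Zbtb16 (3.72 ± 0.94), which encodes PLZF. Receptors were Ccr6 (3.50 ± 0.87), Ccr2 (1.88 ± 0.37), Cxcr6 (1.74 ± 0.31) and Il18r1 (1.81 ± 0.42), and Cd163l1 was at least 562-fold higher. Blk (6.70 ± 0.67), Trdv4 (6.76 ± 0.84), Tmem176a (2.48 ± 0.34) and Serpinb1a (3.20 ± 0.52), a protease inhibitor, were also higher. Il17a passed the threshold (5.85 ± 0.70) on the 1 barcode described above.

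Outside that list, Hk2, a glycolytic hexokinase, was higher by 3.57 ± 0.76, Ltb4r1 by 3.01 ± 0.65, Actn2, an actin-binding protein, by 2.68 ± 0.57, Ero1l, an oxidase of protein folding in the endoplasmic reticulum, by 2.58 ± 0.59, Rnase4 by 2.46 ± 0.77 and Irs2, an insulin-receptor substrate, by 2.25 ± 0.60. Hk2, Actn2, Ero1l and Ltb4r1 were not past the threshold without PD-L1 KO library 2, Ltb4r1 also without WT library 1, and Zbtb16 without either WT library; without either PD-L1 KO library Zbtb16 did not pass the low-count filter. Rnase4 lost its call without any 1 of the 4 libraries, and Irs2 without PD-L1 KO library 1 or either WT library. Tcrg-C4 was higher by 4.33 ± 0.72.

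Among cytotoxic genes 5 were lower and 0 higher of 18 tested from 22, and 3 were lower with DESeq2 size factors. Nkg7 was lower by -2.53 ± 0.36 and Ccl5 by -2.11 ± 0.25; Ccl5 had 37 and 16 UMIs in PD-L1 KO and 19 and 0 in WT gamma-delta sums. Of 14 T cell receptor genes 7 were lower and 1 higher, or 4 lower and 1 higher with DESeq2 size factors, among them Trac (-2.09 ± 0.37), Cd28 (-2.59 ± 0.44), a co-stimulatory receptor, and Lck (-2.10 ± 0.39), a proximal kinase. Trac was still found in 7 of 25 gamma-delta barcodes, 28.0% against 80.1% of T cell and 0.513% of B barcodes, and Trbc1 or Trbc2 in 22. Whether such barcodes also carry an alpha-beta receptor cannot be told apart from transcripts of constant regions alone.

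The 12 lower genes of largest difference, Inmt, Ptprb, Mki67, Sparc, Mfap4, Egfl7, Hist1h2ap, Gpihbp1, Adgrf5, Ramp2, Gpx3 and Trib2, all had 0 UMIs in gamma-delta sums, and were at least 2.13-fold (Ramp2) to at least 3.47-fold (Inmt) lower by the floor of 3 UMIs over the 4 sums. Ptprb, Egfl7, Gpihbp1, Adgrf5 and Ramp2 are endothelial and Inmt, Sparc and Mfap4 stromal genes. Endothelial and stromal markers summed to 29.0 to 438 CPM in gamma-delta and 167 to 631 CPM in T cell sums; their part in these differences was not tested. DESeq2 called 46 higher (0.705%) and 10 lower genes (0.153%), and 0 of these 12. Of the 12, only Mki67, Sparc and Trib2 were still past the edgeR threshold without PD-L1 KO library 2; Gpihbp1 and Ramp2 also lost their calls without PD-L1 KO library 1, and Gpx3 and Trib2 without WT library 1.

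**Figure D4:**
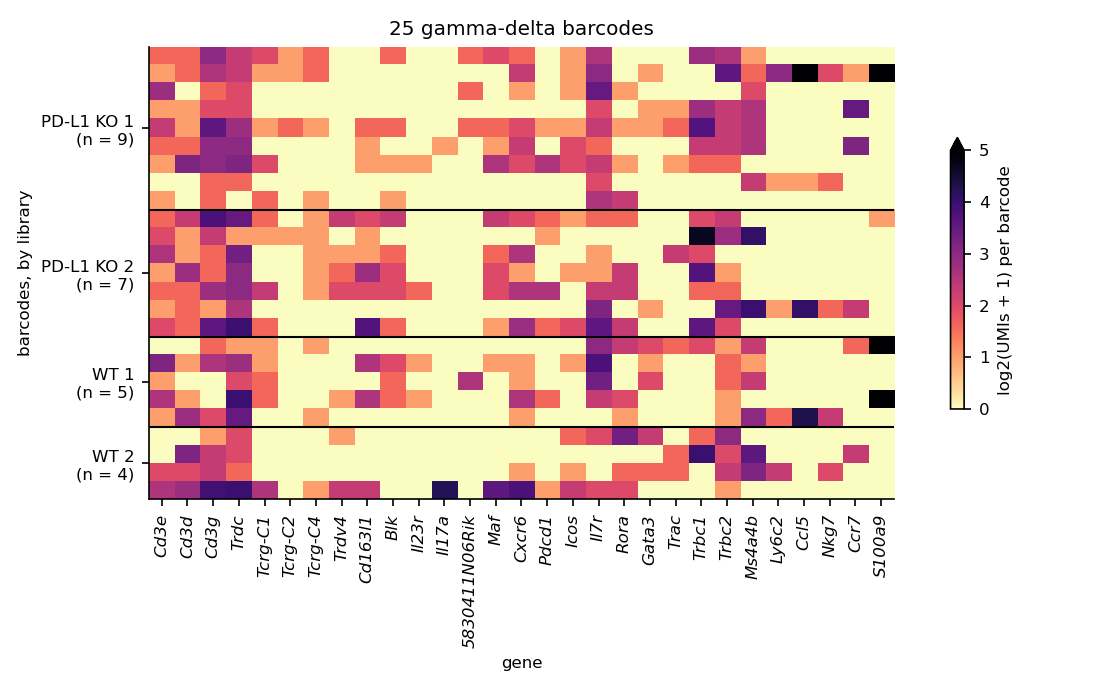
Colour gives log2 of UMIs plus 1 in the 25 gamma-delta barcodes (rows), grouped by library with PD-L1 KO first, for rule genes, IL-17-type genes, cytotoxic genes and receptor constant regions (columns). Cd163l1 is seen in 12 barcodes and Pdcd1 in 8.

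Pdcd1, the PD-1 gene, was found in 8 of 25 gamma-delta barcodes, or 32.0%, against 8.96% of T cell, 11.1% of ILC2-like and 0.256% of B barcodes. It had 6 and 10 UMIs in PD-L1 KO and 2 and 1 in WT gamma-delta sums, or 173 and 416 CPM in PD-L1 KO and 79.4 and 62.6 CPM in WT. In CPM, PD-L1 KO lay above WT, but the WT values rest on 2 and 1 UMIs. The UMIs came from 2 of 9 and 4 of 7 barcodes in PD-L1 KO and 1 of 5 and 1 of 4 in WT, and as shares of barcodes the groups overlapped. All 8 barcodes with Pdcd1 were among the 16 with an IL-17-type UMI, an overlap that was not tested. In T cell sums Pdcd1 had 86.5 and 57.7 CPM in PD-L1 KO and 39.9 and 6.99 CPM in WT, without overlap in CPM. Neither separation was tested, and the share of all genes that lie apart in this way is not given. ILC2-like sums had 25.2 and 11.7 CPM in PD-L1 KO and 15.2 and 43.3 CPM in WT, which overlap. The difference of gamma-delta from T cells was 1.36 ± 0.51 (edgeR adjusted p = 0.121) and from ILC2-like cells 2.74 ± 0.79 (edgeR adjusted p = 0.0976), past the threshold in neither.

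Compared directly, gamma-delta sums were higher than ILC2-like sums in 14 genes (0.889%) and lower in 19 (1.21%) of 1574 tested with edgeR, 2.1% in all. Cd163l1 was at least 92.5-fold and Blk at least 56.8-fold higher. Of the IL-17-type list only these 2 genes were past the threshold as higher and 0 as lower, or 3 and 0 with DESeq2 size factors. Maf, Il18r1, Trdv4, Igf1r, Cxcr6 and Cd44 had positive differences short of the edgeR threshold. Ccr2, Tmem176a, Tmem176b, Serpinb1a and Lgals3 had negative differences, also short of it. Ms4a4b, a membrane protein of T cells, averaged 959 ± 328 CPM in gamma-delta and 14.7 ± 29.4 CPM in ILC2-like sums (log2 difference 6.11 ± 0.70 SE, edgeR adjusted p = 0.000927). Txk, a kinase of T cell signalling, averaged 536 ± 189 CPM and 21.0 ± 13.6 CPM in gamma-delta and ILC2-like sums (4.48 ± 0.50, SD and SE as before, n = 4). The T cell regulators Tcf7 (3.09 ± 0.63) and Satb1 (2.98 ± 0.40) and the survival gene Bcl2 (1.75 ± 0.30) were higher too, and so were Ms4a6b, Gimap4, Dusp2, Ripor2, Crlf3 and Trac. Tcf7, Dusp2, Cd93 and Ehd4 lost their calls without PD-L1 KO library 2, Crlf3 and Cd93 without WT library 2 and Hs3st1 without PD-L1 KO library 1. Trac did not pass the low-count filter when any 1 library was left out. Leaving out any 1 library gave 63 to 112 called genes, of 2134 to 2280 tested, in place of 33 of 1574.

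On the ILC2-like side stood Lmo4, a LIM-domain transcriptional regulator, at 57.6 ± 21.9 CPM in gamma-delta and 650 ± 337 CPM in ILC2-like sums (-3.58 ± 0.40, edgeR adjusted p = 0.000927). Stab2 was lower in gamma-delta sums by -3.26 ± 0.62, Hs3st1, a heparan sulfate enzyme, by -4.02 ± 0.88, Ctla2a, a cysteine protease inhibitor, by -3.24 ± 0.58, and Tnfrsf18 by -2.15 ± 0.43. Itm2b (-0.90 ± 0.20), Fth1 (-0.84 ± 0.13) and Tmsb4x (-0.40 ± 0.07) were lower by small amounts. Epas1, Cd93 and Ehd4 were lower as well, but their ILC2-like counts came mostly from PD-L1 KO library 2 and WT library 2, where endothelial-marked barcodes lie: Epas1 had 8 and 118 UMIs in PD-L1 KO and 9 and 200 in WT. Without the barcodes of other lineages 68 of 1180 tested genes were called. Of the 23 genes named here by rank 18 were still past the threshold. Tmsb4x was not, and Epas1, Cd93, Ehd4 and Trac did not pass the low-count filter.

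Between PD-L1 KO and WT libraries, ILC2-like sums gave 0 genes higher (0.0%) and 0 lower of 2663 tested with edgeR. At an unadjusted p of 0.05 there were 60, and DESeq2 called 0 higher and 1 lower (0.0376%), Malat1. The 5 genes of smallest p, none past the adjusted threshold, are given as values. Malat1, a nuclear non-coding RNA, had 22370 and 18255 CPM in PD-L1 KO and 31056 and 29161 CPM in WT (-0.59 ± 0.11, edgeR adjusted p = 1.00). Isg15, an interferon-induced ubiquitin-like protein, had 50.5 and 52.6 CPM in PD-L1 KO and 189 and 149 CPM in WT (-1.70 ± 0.35, edgeR adjusted p = 1.00). Ccl6, a myeloid chemokine, had 3 and 3 UMIs in PD-L1 KO and 21 and 22 in WT. ILC2-like barcodes with 50 or more UMIs of S100a8 and S100a9 numbered 2 and 3 in PD-L1 KO and 7 and 6 in WT. All 10 neutrophil list genes together summed to 4331 and 8847 CPM in PD-L1 KO and 17385 and 6712 CPM in WT, which overlap; their part in the Ccl6 values was not tested. Ifitm1 had 311 and 462 CPM in PD-L1 KO and 144 and 140 CPM in WT, and Hmgb2, a chromatin protein of dividing cells, 437 and 567 CPM in PD-L1 KO and 227 and 250 CPM in WT. PD-L1 KO and WT libraries did not overlap for any of the 5, but choosing genes by smallest p favours such separation. It is therefore no further support for a difference. Malat1 passed the threshold without the barcodes of other lineages (edgeR adjusted p = 0.0402). Leaving out libraries gave 8 higher and 0 lower genes without PD-L1 KO library 1, 1 and 9 without PD-L1 KO library 2, 0 and 0 without WT library 1, and 1 and 2 without WT library 2.

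Gene lists were compared between the labels by counts and medians, without a test. Of 57 interferon genes 16 were tested, 5 positive and 11 negative, with a median log2 difference of -0.18 beside -0.02 over all genes. Summed interferon counts overlapped, at 2447 and 3894 CPM in PD-L1 KO and 2819 and 4585 CPM in WT. Without the barcodes of other lineages they were 2447 and 2450 CPM in PD-L1 KO and 2963 and 2658 CPM in WT, without overlap. Those barcodes were chosen after seeing the data, and the share of lists or genes that lie apart in this way is not given. The separation is therefore no support for a difference. Of 14 early response genes tested 11 were negative, with a median of -0.35. Only 4 cell cycle genes were tested, and all were positive, with a median of 1.03. They were Stmn1 (2.95 ± 1.21), Hmgb2 (1.06 ± 0.28), H2afz (1.00 ± 0.58) and Tubb5 (0.84 ± 0.41), and Hmgb2 had already been named for its small p. The summed list was 1413 and 3473 CPM in PD-L1 KO and 1069 and 880 CPM in WT. Without the barcodes of other lineages it was 1413 and 3787 CPM in PD-L1 KO and 923 and 858 CPM in WT. Both times PD-L1 KO library 2 lay far above the rest. The ILC2 list had 9 positive and 12 negative of 21 tested, with a median of -0.19.

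**Figure D5:**
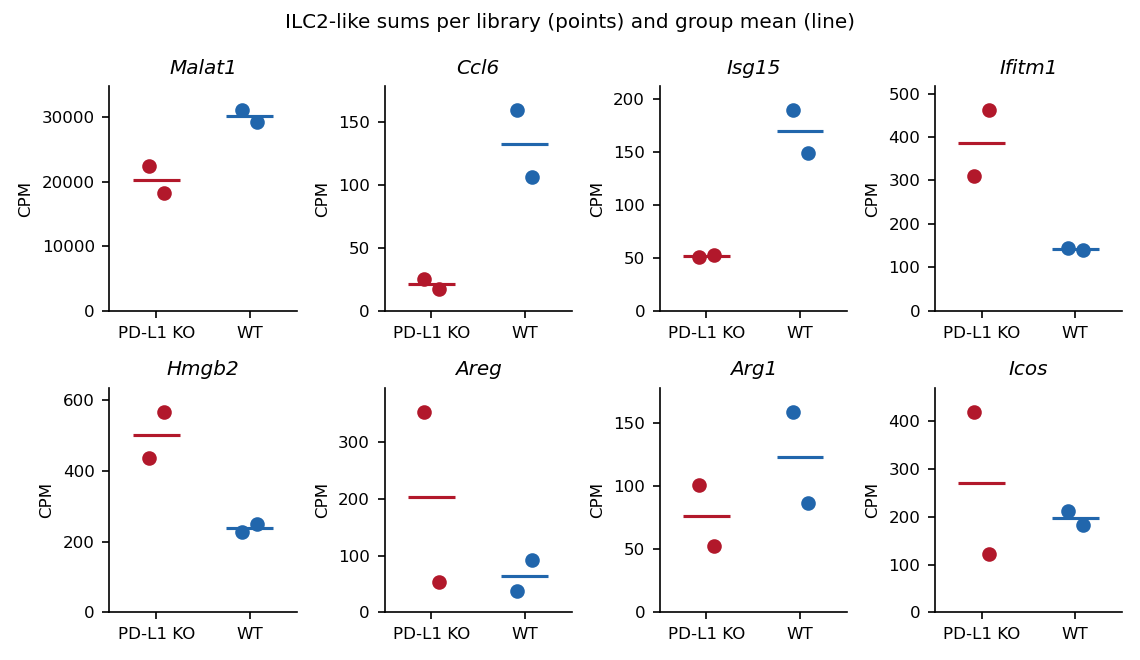
Level (CPM, y axis from 0) in PD-L1 KO (left) and WT (right) ILC2-like sums of the 5 genes of smallest p and of Areg, Arg1 and Icos, with 1 point per library and a line at the group mean. Isg15 lay at 50.5 and 52.6 CPM in PD-L1 KO and 189 and 149 CPM in WT; 0 of 2663 genes passed the edgeR threshold.

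Within gamma-delta cells the labels were compared by values only, because no library held 10 such barcodes. Isg15 had 2 and 0 UMIs in PD-L1 KO and 4 and 3 in WT, Maf 11 and 13 in PD-L1 KO and 1 and 11 in WT, and Icos 10 and 5 in PD-L1 KO and 1 and 7 in WT. Trbc1 had 30 and 56 UMIs in PD-L1 KO and 3 and 17 in WT. Scaled to CPM, PD-L1 KO and WT overlapped for Maf, Icos and Trbc1; Isg15 had 57.8 and 0 CPM in PD-L1 KO and 159 and 188 CPM in WT. A fit of the difference between the subsets in the PD-L1 KO effect called 0 of 1574 genes with edgeR and 0 with DESeq2, and 34 had an unadjusted p under 0.05; it rests on the same 4 to 9 gamma-delta barcodes per library.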

How the data were processed

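Per the labels' protocols, libraries were made from CD45-selected lung leukocytes with the 10x Genomics 3' kit, version 3. Reads were processed with STAR and Cell Ranger 3.1.0 on mm10, per the submitters' processing notes. The authors deposited matrices of whole-number UMI counts per gene and barcode, with no normalization; 31053 genes were listed. The kit reads 3' ends, so isoforms are not told apart.

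Members were taken by the rules in the text, and UMIs were summed per library and class. CPM is the sum scaled to that class's own total. Genes were filtered with filterByExpr, scaled by TMM and tested with edgeR 4.0.16's quasi-likelihood test (R 4.3.3) with Benjamini-Hochberg adjustment over all genes of a fit; DESeq2 1.42.0 was an alternative. Class comparisons had the library as a block. Fits of the labels within a subset required at least 10 barcodes in every library; the fit of the difference in label effect between subsets did not. The standard error is the log2 difference divided by the square root of the F value. Shares were compared by exact permutation over libraries. Doublets were scored with Scrublet in scanpy 1.11.5 at 0.8% per 1000 barcodes (216 called, 2.08%) and were removed only as an alternative. The fits were tested on simulated data.

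Genes are named by rank when past adjusted p 0.05, up to 12 per direction by log2 difference and of 1 direction in every library, or as the 5 of smallest p where fewer than 5 pass; list members and preset cytokine and receptor genes are named besides, and genes outside these were chosen after their values were seen. Some genes of the lists are counted but not reported here by name. The members, the 19 gene lists and the tests were chosen with earlier results of these data known. Alternatives were other scalings, filters and tools, stricter barcode rules, thinning to 1500 UMIs, leaving out each library, a replicate block and, chosen after seeing the data, leaving out barcodes with other-lineage genes. Gene identifiers were matched to GENCODE M21 (389 of 389), and promoters came from RefSeq.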

Additional observations from a re-analysis of the deposited data

Results flagged for a closer look

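The PD-L1 KO to WT ratio of shares differed between the subsets: the log2 ratio was 1.01 for gamma-delta and -0.24 for ILC2-like barcodes, a difference of 1.25. It was flagged because both gamma-delta shares were higher in PD-L1 KO than in WT while both ILC2-like shares were lower; the ILC2-like shares overlapped without the barcodes of other lineages. Gamma-delta barcodes per ILC2-like barcode were 0.346 and 0.292 in PD-L1 KO and 0.167 and 0.108 in WT, and an exact two-sided permutation test gave p = 0.333, the smallest that this test allows for 2 against 2 libraries. It rests on 9 and 7 gamma-delta barcodes in PD-L1 KO and 5 and 4 in WT.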

How the results depend on the processing

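The direction of both share differences held under every alternative run but 1: requiring no Trac, Trbc1 or Trbc2 UMI turned the ILC2-like log2 ratio to 0.61, and left gamma-delta barcodes in PD-L1 KO library 1 alone, so no gamma-delta ratio was computed. Counts of called genes moved more, and the number of genes tested moved as well. Between labels in ILC2-like sums 0 of 2663 tested genes were called. There were 21 of 12659 with no low-count filter, 1 of 2663 with DESeq2 and 2 of 2663 with the replicate block. Without barcodes of other lineages there were 2 of 1796. Gamma-delta against ILC2-like (33 of 1574) gave 195 of 12860 with no filter and 68 of 1180 without barcodes of other lineages. At no more than 5% mitochondrial UMIs, which kept 49 of 117 ILC2-like and 13 of 25 gamma-delta barcodes, it gave 7 of 437. Leaving out a library gave 63 to 112, of 2134 to 2280 tested. Tmsb4x turned to 0.17 when any UMI of other lineages barred a barcode. Gamma-delta against T cells (264 of 6523) gave 124 of 6523 with DESeq2 size factors and 56 of 6523 with DESeq2's test. Leaving out a library gave 100 to 292, of 7392 to 7734 tested. ILC2-like against T cells (813 of 7089) gave 135 of 4945 at 5% mitochondrial UMIs and 526 of 6917 with no Trac, Trbc1 or Trbc2 UMI. It gave 1274 of 6336 without barcodes of other lineages. Leaving out a library gave 394 to 703, of 7884 to 8022 tested. The difference of label effects (0 of 1574) gave 1 of 12860 with no filter and 1 of 389 with no UMI of other lineages. Where fewer barcodes entered, smaller sums were tested, and the low-count filter passed other numbers of genes. The cause of these moves was otherwise not tested.

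Same-numbered libraries deviated together in ILC2-like sums (correlation 0.47 over 2663 genes), but 2 pairs do not show that numbers pair the libraries; with the replicate block the share ratios were -0.23 and 1.01 in log2. The label fit within ILC2-like sums could not be run with stricter mitochondrial, receptor-constant or other-lineage limits, which left under 10 barcodes in a library, nor the gamma-delta fits, the difference of label effects included, with no receptor-constant UMI. Depth limits the gamma-delta values: 3 UMIs over the 4 sums equal 30.0 CPM, against 4.76 CPM for ILC2-like sums.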
